A study of Mus musculus with 16 samples.

Results

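The mitochondrial genome of the mouse encodes mRNAs for subunits of the respiratory chain, the RNAs of the mitochondrial ribosome and a set of tRNAs. Its transcripts were followed in B cells through the rows of the deposited count table whose gene name begins with mt-. The table held 24 such rows among 25640 genes. They were 11 of the 13 mRNAs, 2 of 2 rRNAs and 11 of 22 tRNAs of the 37 genes that the RefSeq annotation places on this genome. The other 13 genes had no row in the table and were not analysed here. Of the 24 rows, 11 passed the filter on low counts and entered the tests, which covered 13708 genes in all. These were mt-Nd1, mt-Nd2, mt-Nd4, mt-Nd5, mt-Nd6, mt-Cytb, mt-Co1, mt-Rnr1, mt-Rnr2, mt-Tw and mt-Tt.

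The libraries came from follicular B cells (FoB), the resting B cells of the spleen follicle, and germinal center B cells (GCB), their dividing, antigen-activated counterparts. Both were sorted from spleens of C57BL/6 mice aged 10 weeks, on day 7 after immunization with 100 µg of NP-CGG in alum. Floxed Rock2, which encodes a kinase of the actomyosin cytoskeleton, was homozygous in every group. The control (WT) carried Rock2 flox/flox and no Cre, and the conditional knockout (cKO) carried CD23-Cre in addition, a recombinase that the CD23 promoter switches on in mature B cells. FoB and GCB of both genotypes made 4 groups of 3 RNA-seq libraries each, numbered 1 to 3, and the 4 ATAC-seq samples of the study were not used here. The labels do not say whether replicates came from different mice, so p-values measure the spread between these samples alone.

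Total counts per library ran from 23349512 to 26967943. In GCB against FoB, 8 of 8 markers of germinal center B cells were called higher and 8 of 8 markers of follicular B cells lower, in both genotypes. Of all tested genes, 25.6% were called higher and 22.8% lower in WT, and 24.8% and 21.8% in cKO. Rock2 was at 119 to 163 CPM in WT FoB and 80.9 to 133 in cKO FoB, and at 141 to 199 in WT GCB and 92.5 to 127 in cKO GCB. Its log2 fold change in cKO over WT was -0.54 ± 0.18 (SE) in GCB and -0.42 ± 0.18 in FoB (adjusted p = 0.563 and 1). With the replicate number as a block the GCB difference passed the test (-0.53 ± 0.12, adjusted p = 0.033). Summed marker levels over all 12 libraries were 1.45 to 11 CPM for T cells, 9.12 to 35.5 CPM for macrophages and 0.354 to 15.3 CPM for neutrophils, against 4060 to 8110 CPM for B cells.

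Mitochondrial DNA is transcribed from both strands as long precursors. The tRNAs lie between most of the mRNAs and rRNAs, and their removal by endonucleases frees the neighbouring RNAs, of which the mRNAs and rRNAs are then adenylated. The heavy-strand precursor carries the rRNAs and all mRNAs but one. The exception, mt-Nd6, lies on the light strand, and in human cells its mRNA largely lacks a poly(A) tail. The libraries were made from polyadenylated RNA, and whether the counting used strand or kept reads with several matches is not given in the sources used here.

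Mitochondrially encoded genes held between 1.05% and 5.50% of a library's counts. In replicates 1, 2 and 3 the share was 2.95%, 3.72% and 1.83% in WT FoB and 2.43%, 3.97% and 1.68% in cKO FoB. It was 2.53%, 5.50% and 1.3% in WT GCB and 2.52%, 4.51% and 1.05% in cKO GCB. All 4 groups overlapped, and in each of them replicate 2 was the highest and replicate 3 the lowest.

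**Figure D1:**
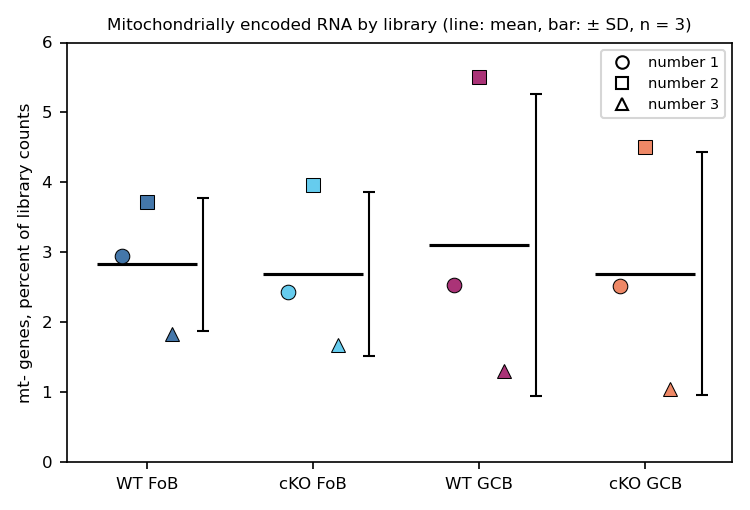
Percent of each library's counts (y axis) that fell in genes named mt-, for the 4 groups (x axis). Symbols mark the replicate number, the line is the mean of 3 libraries and the bar beside it ± SD. Replicate 2 is the highest point of every group, at 3.72% to 5.50%, and replicate 3 the lowest, at 1.05% to 1.83%.

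Nearly all of these counts came from 8 members, which held 99.91% to 99.98% of the mitochondrially encoded counts in every library. The largest was mt-Co1 (ENSMUSG00000064351, mitochondrial genome positions 5328 to 6872 in GRCm38.p6), the catalytic core subunit of complex IV, with 40.7% of them. Next was mt-Cytb (ENSMUSG00000064370, 14145 to 15288), the subunit of complex III encoded here, with 20.3%. The complex I subunits mt-Nd5, mt-Nd1, mt-Nd2 and mt-Nd4 held 11.2%, 10.9%, 6.52% and 6.19%. The 16S and 12S rRNAs of the mitochondrial ribosome, mt-Rnr2 and mt-Rnr1, held 3.12% and 1.08%.

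Per kilobase of gene length the order was similar. Over the 12 libraries mt-Co1 was at 7460 ± 3560 CPM per kb (mean ± SD), mt-Cytb at 5020 ± 2530 and mt-Nd1 at 3220 ± 1520. mt-Nd2 and mt-Nd5 stood at 1780 ± 915 and 1740 ± 791 CPM per kb, which did not differ beyond their spread, and mt-Nd4 followed at 1270 ± 594. The rRNAs lay lower, mt-Rnr2 at 560 ± 287 and mt-Rnr1 at 319 ± 141 CPM per kb. Each SD exceeded the gap to the next member down, except for mt-Nd4 over mt-Rnr2, yet within every one of the 12 libraries mt-Co1 was followed by mt-Cytb, mt-Nd1 and then the other complex I subunits.

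Below these came 3 tested members with few counts. mt-Tt, the tRNA for threonine, was at 66.7 ± 22.3 CPM per kb, mt-Tw, the tRNA for tryptophan, at 14.3 ± 10.6, and mt-Nd6, a membrane subunit of complex I, at 14.1 ± 10.6. The remaining 13 rows were near 0, with no more than 14 counts for any of them in any library. Among the tRNAs, mt-Tq reached 14 counts, mt-Tm 13 and mt-Tp 11.

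A stretch of 4 mRNAs was almost without counts. mt-Co2, mt-Atp6, mt-Co3 and mt-Nd3, which lie next to each other between positions 7013 and 9806, held 0 to 6 counts together in any library and 36 over all 12. They encode subunits of complexes IV, V, IV and I, and the same strand carries mt-Co1 on one side and mt-Nd4 on the other, at 114063 to 578754 and 17659 to 89017 counts. A nuclear stretch on chromosome 1 of the mouse genome holds near-identical copies of this part of the mitochondrial genome. Its annotated copies Gm10925 (chromosome 1, 24613971 to 24614651), 681 bases long like mt-Atp6, and Gm10222 (24612404 to 24612700), 297 bases long like mt-Nd4l, had 0 to 4 counts per library. The table therefore gives no measure of these members, and whether reads with 2 equal matches were discarded was not tested. Complex V is represented here only by mt-Atp6, at 0 or 1 count.

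**Figure D2:**
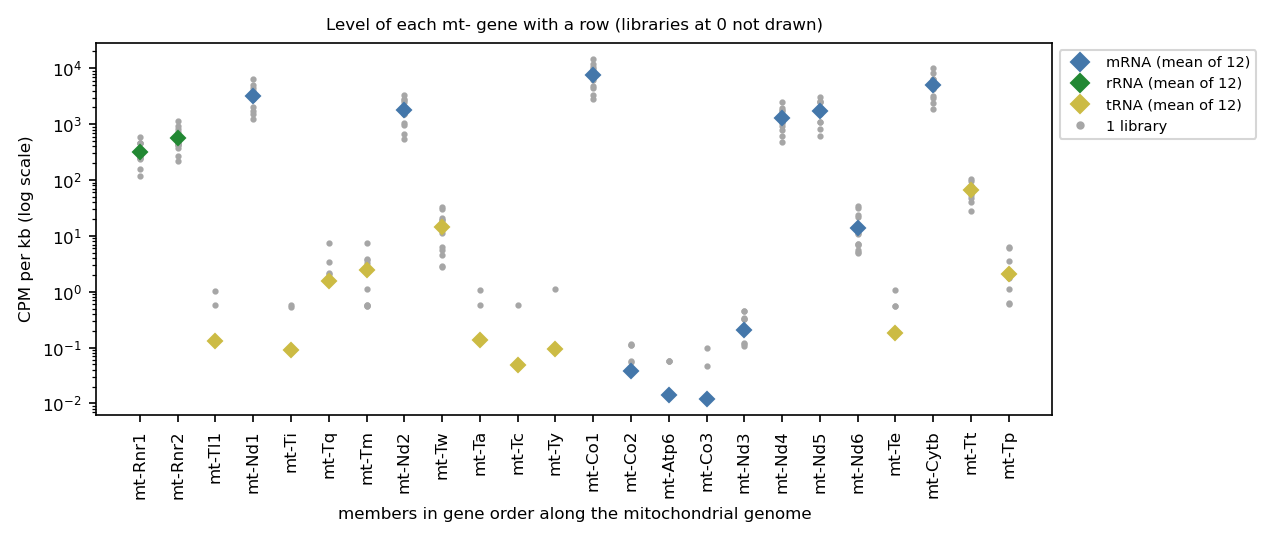
Level of each of the 24 members in CPM per kilobase of gene length (y axis, log scale), in gene order along the mitochondrial genome (x axis), with a grey point per library and a diamond for the mean of 12 libraries. The 8 abundant members lie at 319 to 7460 CPM per kb on average, and the block from mt-Co2 to mt-Nd3 lies below 1.

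The abundant members kept the same order of replicates in every group. In replicates 1, 2 and 3, mt-Co1 was at 12200, 15000 and 7530 CPM in WT FoB and 9730, 16100 and 6880 in cKO FoB. In GCB it was at 10300, 22200 and 5220 CPM in WT and 10200, 18600 and 4310 in cKO. The FoB range lay within the GCB range, and replicates 2 and 3 of GCB lay outside those of FoB on either side.

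mt-Cytb gave the same picture at a lower level. It was at 5680, 7420 and 3590 CPM in WT FoB and 4790, 7510 and 3350 in cKO FoB. In GCB it was at 5130, 11800 and 2720 CPM in WT and 5140, 9620 and 2140 in cKO. mt-Nd1, the complex I subunit at the start of the mRNA series, ran from 1670 to 4330 CPM in FoB and from 1200 to 6040 in GCB. The rRNAs spanned 225 to 448 CPM in FoB and 111 to 551 CPM in GCB for mt-Rnr1, and 594 to 1280 and 350 to 1840 CPM for mt-Rnr2.

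Replicate 2 was highest and replicate 3 lowest in all 4 groups for 8 of 8 abundant members. Of all tested genes, 5.87% were highest in replicate 2 of all 4 groups and 15% were lowest in replicate 3 of all 4. The members had been singled out with this pattern known, so it is given as a description. The summed share in replicate 2 was 1.26 times that in replicate 1 in WT FoB, 1.63 times in cKO FoB, 2.17 times in WT GCB and 1.79 times in cKO GCB. Over replicate 3 it was 2.03, 2.36, 4.24 and 4.32 times as high in the same order, a wider span in both GCB groups, which was not tested.

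mt-Nd6 did not follow the abundant members. In replicates 1, 2 and 3 it had 433, 89 and 88 counts in WT FoB, 304, 95 and 70 in cKO FoB, 460, 154 and 73 in WT GCB and 305, 144 and 68 in cKO GCB. Replicate 1 was the highest in every group, as for 17% of all tested genes. Per 100000 mitochondrially encoded counts, mt-Nd6 had 46.4 to 69.7 in the 4 libraries numbered 1, 9.31 to 12.4 in those numbered 2 and 15.7 to 24.6 in those numbered 3, and these ranges did not overlap.

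mt-Nd6 (ENSMUSG00000064368, positions 13552 to 14070) overlaps the end of mt-Nd5 (11742 to 13565) on the other strand. Without stated strand use, reads from mt-Nd6 and from heavy-strand RNA across it cannot be told apart. The ratio of mt-Nd5 to mt-Nd6 counts was 158 to 260 in replicate 1, 845 to 1270 in replicate 2 and 433 to 745 in replicate 3.

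The tRNA mt-Tt (ENSMUSG00000064371, positions 15289 to 15355) begins at the base after mt-Cytb and had 48 to 178 counts per library. In replicates 1, 2 and 3 it was at 3.21, 2.67 and 5.18 CPM in WT FoB, 3.56, 1.87 and 4.67 in cKO FoB, 3.95, 6.55 and 4.76 in WT GCB and 5.06, 6.91 and 5.26 in cKO GCB. Replicate 3 was the highest in both FoB groups and replicate 2 in both GCB groups. For each mt-Tt count there were 407 to 717 mt-Cytb counts in replicate 3 and 1390 to 4020 in replicate 2, so mt-Tt did not scale with its neighbour.

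Members' log2 CPM, here scaled by edgeR's TMM factors, were correlated with the unscaled log2 summed share across the 12 libraries, each less its group mean. The correlation was 0.963 to 0.996 for the 8 abundant members, which make up that share. It was 0.967 for mt-Tw, 0.398 for mt-Nd6 and -0.042 for mt-Tt. These values describe 12 libraries that share 3 replicate numbers.

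**Figure D3:**
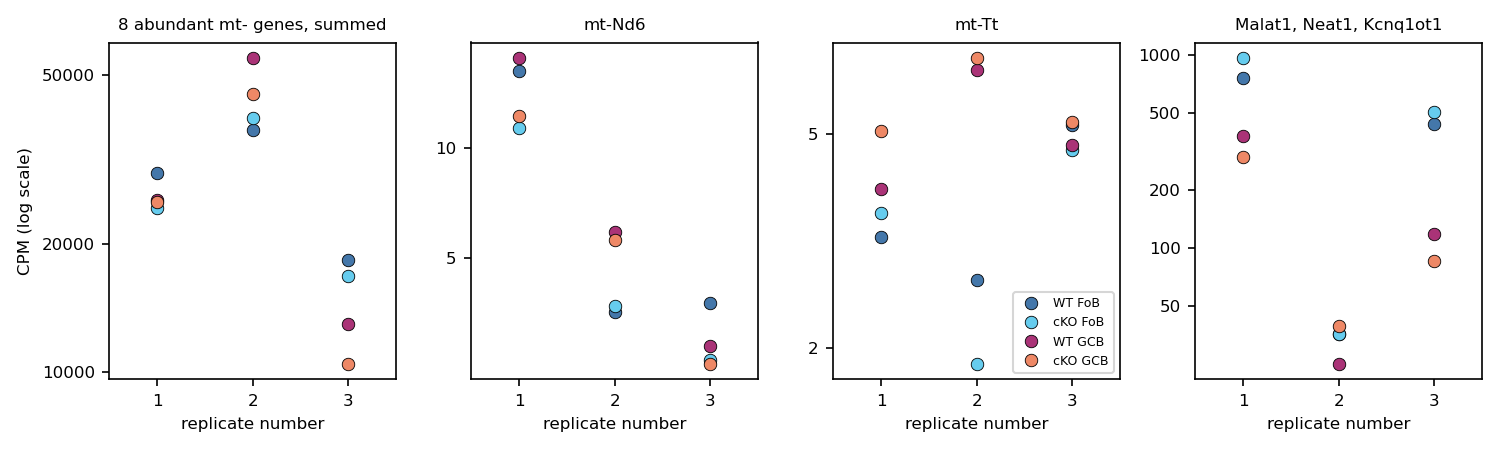
CPM (y axes, log scale) by replicate number (x axes) for the sum of the 8 abundant members, for mt-Nd6, for mt-Tt and for the sum of the nuclear-retained RNAs Malat1, Neat1 and Kcnq1ot1, with 1 point per library coloured by group. The abundant members are highest in replicate 2, mt-Nd6 in replicate 1, and the nuclear-retained RNAs are at 24.9 to 39.1 CPM in replicate 2, below all other libraries.

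Other RNAs were followed by replicate number too. The nuclear-retained RNAs Malat1, Neat1 and Kcnq1ot1 summed to 296 to 971 CPM in replicate 1, 24.9 to 39.1 in replicate 2 and 85.1 to 510 in replicate 3. Malat1 made up most of this sum, with 726 of 766 CPM in WT FoB replicate 1. Kcnq1ot1 did not follow it in cKO GCB, at 4.47, 2.6 and 2.5 CPM in replicates 1, 2 and 3. The share of tested genes lowest in replicate 2 of every group is not given here. Neutrophil markers summed to 0.518 to 15.3 CPM in replicate 1, 3.8 to 12.4 in replicate 2 and 0.354 to 2.45 in replicate 3, with replicate 1 spanning nearly the whole range. T cell markers summed to 2.07 to 8.04, 4.37 to 11 and 1.45 to 7.5 CPM in replicates 1, 2 and 3, and were highest in replicate 2 of every group. Macrophage markers summed to 14.3 to 35.5, 9.12 to 27.9 and 10.5 to 26.7 CPM in the same order. Genes of stressed and dying cells, such as Fos and Hspa1a, summed to 374 to 1250, 171 to 1030 and 212 to 703 CPM, highest in replicate 1 of every group. Plasma cell markers were at 132 to 1230, 178 to 1650 and 126 to 1030 CPM, and erythroid markers at 1.75 to 6.62, 3.55 to 6.75 and 2.48 to 6.57. Platelet markers stayed at or below 1.12 CPM. Xist was lowest in replicate 2 of every group, at 38.8 to 226 CPM. The part of any of these RNAs in the mitochondrial levels was not tested.

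Between cell types the summed share did not differ beyond the spread of replicates. It was 2.84% ± 0.95 (SD, n = 3) in WT FoB and 3.11% ± 2.16 in WT GCB, a difference of 0.276 percentage points (two-sided exact permutation test, p = 0.9). In cKO it was 2.69% ± 1.17 in FoB and 2.69% ± 1.74 in GCB (exact p = 1). An exact permutation test of 3 against 3 libraries cannot go below p = 0.1. Paired by genotype and replicate number, GCB exceeded FoB in 3 of 6 pairs and lay below it in 3, with a mean difference of 0.137 points (SD 0.918, exact paired permutation p = 0.78125). A difference in mitochondrial RNA per cell and one in the share of cells rich in it cannot be told apart in such bulk samples.

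The direction of the cell type difference changed with the replicate number. In replicate 2, 11 of 11 tested members were higher in WT GCB than in WT FoB, with a median log2 ratio of 0.57. In replicate 3, 11 of 11 were lower, with a median of -0.53, and in replicate 1, 9 were lower and 2 higher, with a median of -0.25. In cKO the counts of higher members were 9 of 11 in replicate 2, 1 in replicate 3 and 7 in replicate 1. The members share a genome and each library, so these counts are not independent observations.

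**Figure D4:**
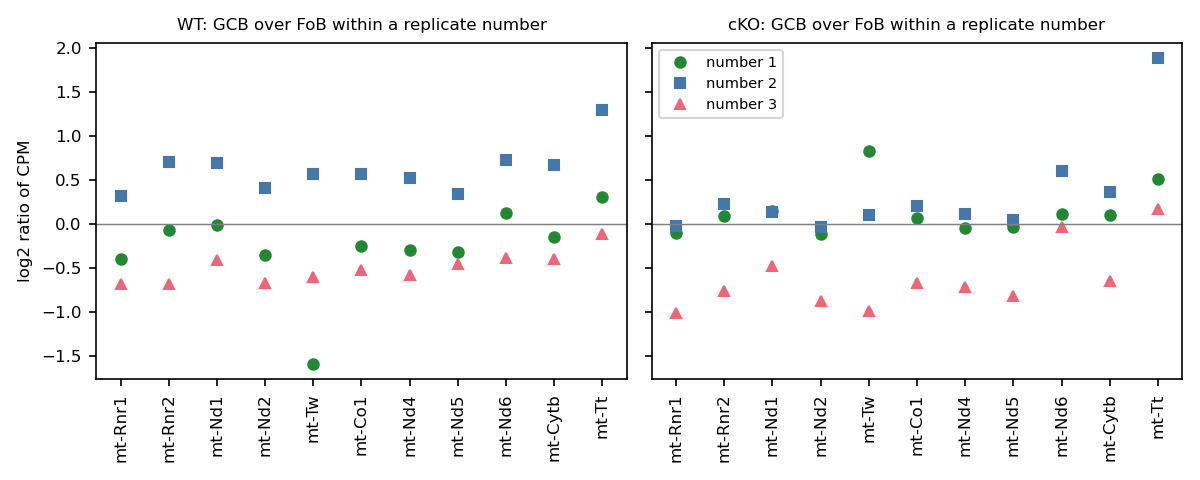
The log2 ratio of CPM in GCB over FoB (y axis) within each replicate number, for the 11 tested members in gene order (x axis), in WT (left) and cKO (right). In WT the squares of replicate 2 all lie above 0 and the triangles of replicate 3 all lie below it.

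Over all genes, edgeR's quasi-likelihood test with Benjamini-Hochberg adjustment called 48.4% of tested genes between WT GCB and WT FoB, and 0 of 11 mitochondrially encoded members. No member reached an unadjusted p under 0.05 there (0 of 11), while 7529 of 13708 genes did, and DESeq2 called 0 of 11 members. The 8 abundant members had log2 fold changes of -0.01 to 0.33 with standard errors of 0.57 to 0.68. The smallest p-values belonged to mt-Tt (0.55 ± 0.35, adjusted p = 0.214), mt-Nd1 (0.33 ± 0.59, adjusted p = 0.671) and mt-Cytb (0.31 ± 0.62, adjusted p = 0.71). The mt-Tt value was 0.08 with replicate 2 left out of every group. With the replicate number as a block the standard errors of the abundant members fell to 0.16 to 0.20, their fold changes were -0.19 to 0.14, and the lowest adjusted p of any member was 0.102, against 69.5% of genes called.

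In cKO the same comparison called 46.6% of tested genes and 0 of 11 members, and 1 member, mt-Tt, had an unadjusted p under 0.05. Its log2 fold change was 0.81 ± 0.35 (adjusted p = 0.075). The mt-Tt levels of the cKO groups did not overlap, at 1.87 to 4.67 CPM in FoB and 5.06 to 6.91 in GCB, as for 28.6% of tested genes in that direction. With the replicate number as a block mt-Tt was called higher in cKO GCB (0.80 ± 0.29, adjusted p = 0.0233), the one such member in a fit that called 69% of genes, 34.7% of tested genes as higher. Without cKO FoB replicate 3 it was called as well (1.10, adjusted p = 0.0377), and with replicate 2 left out of every group it was not (0.34, adjusted p = 0.453). Next in order of p were mt-Rnr1 (-0.24 ± 0.57, adjusted p = 0.752) and mt-Nd6 (0.23 ± 0.79, adjusted p = 0.834).

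**Figure D5:**
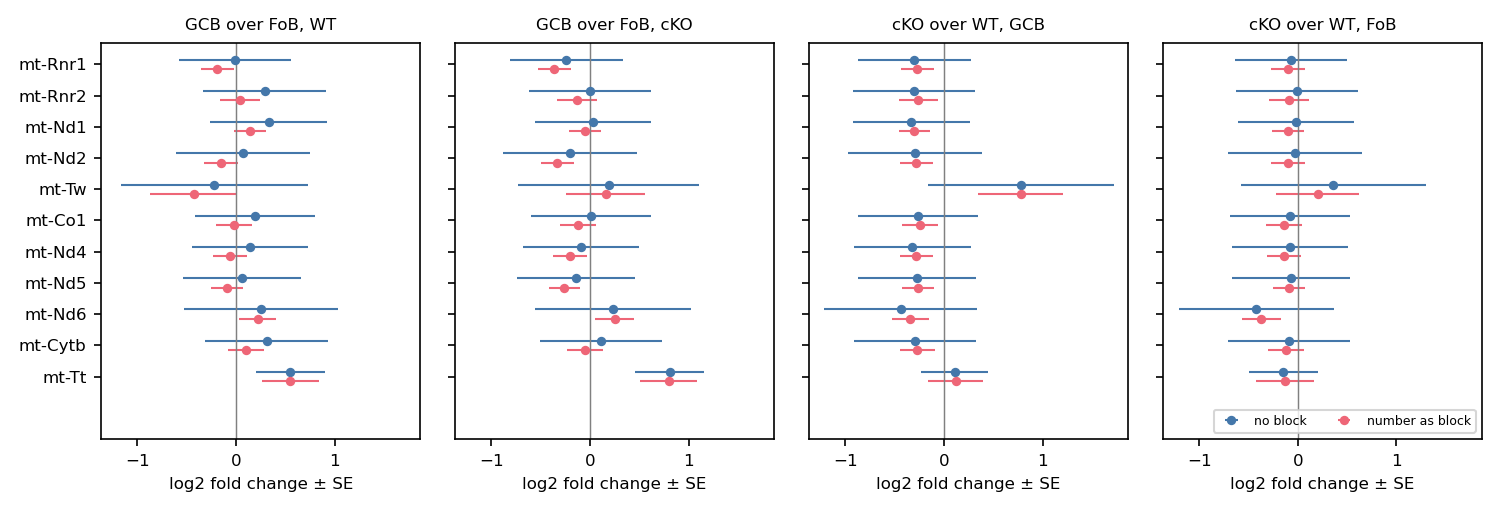
Log2 fold change ± SE (x axes) of the 11 tested members (y axis, gene order) in the 4 comparisons, fitted without a block (blue) and with the replicate number as a block (red). The abundant members' standard errors are 0.57 to 0.68 without the block and 0.16 to 0.20 with it in WT GCB over FoB, and mt-Tt in cKO is the member called with the block.

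Between genotypes no member was called. Paired by cell type and replicate number, the summed share was lower in cKO than in WT in 5 of 6 pairs, by 0.28 percentage points on average (SD 0.43, exact paired permutation p = 0.15625). The exact permutation p of 3 against 3 libraries was 0.7 in GCB and 0.9 in FoB. In GCB, edgeR called 0.102% of tested genes and 0 of 11 members, and 0 members had an unadjusted p under 0.05, against 673 genes. There the abundant members had log2 fold changes of -0.33 to -0.26, and the smallest p-values belonged to mt-Tw (0.78 ± 0.94), mt-Nd6 (-0.44 ± 0.78) and mt-Nd1 (-0.33 ± 0.59), each with an adjusted p of 1. With the block the abundant members were at -0.30 to -0.24 and the lowest adjusted p of any member was 0.459, while 2.14% of genes were called.

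In FoB, 0% of genes and 0 of 11 members were called in cKO over WT, with 95 genes and 0 members at an unadjusted p under 0.05. The abundant members lay at -0.09 to -0.01, and the smallest p-values were those of mt-Nd6 (-0.42 ± 0.79), mt-Tt (-0.15 ± 0.35) and mt-Tw (0.36 ± 0.94), each with an adjusted p of 1. The authors' deposited table lists 10 of these members with log2 fold changes of -0.37 to -0.09 in FoB and -0.38 to 0.13 in GCB, and with a false discovery rate of 1 for each. In cKO over WT GCB, 6 of 8 markers of follicular B cells had a log2 fold change above 0, with a median of 1.01. Of the 8, 0 were called without the block and 4 were called higher with it, against 2.14% of all genes called in either direction. The summed level of the 8 markers was 914 to 955 CPM in WT GCB and 914 to 1350 in cKO GCB. The 5 T cell markers were all above 0 there, with a median of 1.17 and 0 called with or without the block, and summed to 1.45 to 4.37 CPM in WT GCB and 2.84 to 9.16 in cKO GCB. Of 4 plasma cell markers 3 were above 0, with a median of 0.55 and 0 called (1 higher with the block). The part of these markers in the genotype values was not tested.

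The genotype effect was not called different between the cell types for any member (0 of 11, against 0.0073% of all tested genes). The smallest p-values of that difference, GCB minus FoB, were those of mt-Tt (0.26 ± 0.49), mt-Nd1 (-0.31 ± 0.84) and mt-Rnr2 (-0.29 ± 0.87), each with an adjusted p of 1. No member had an unadjusted p under 0.05 (0, against 371 genes).

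The shares of the abundant classes among the mitochondrially encoded counts varied less than the summed level, while those of the scarce mt-Nd6 and the tRNAs spanned 9.31 to 69.7 per 100000 and 0.0103% to 0.0528%. mt-Cytb held 19.3%, 19.9% and 19.6% of them in WT FoB, 19.7%, 18.9% and 19.9% in cKO FoB, 20.2%, 21.5% and 21.0% in WT GCB and 20.4%, 21.3% and 20.5% in cKO GCB. The FoB and GCB values did not overlap, and GCB was higher in 6 of 6 pairs, by 1.26 points (SD 0.683). The exact paired permutation p was 0.03125, the smallest that 6 pairs can give, and 0.0875 after adjustment over the 14 tests of shares, so this did not pass.

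The same held for 3 other shares between the cell types. The complex I subunits held 34.3% of mitochondrially encoded counts in GCB and 35.4% in FoB, lower in 6 of 6 pairs. In WT the pairs of replicates 1 and 3 were nearly equal, at 35.5% against 35.6% and, after rounding, 34.4% against 34.4%. The mean difference of -1.08 points was -0.455 without replicate 2. The tRNAs, here mostly mt-Tt and mt-Tw, held 0.0296% and 0.0206%, and mt-Nd6 held 0.0326% and 0.0272% of the mRNA counts. Both were higher in GCB in 6 of 6 pairs. Each had the same exact p of 0.03125 and adjusted p of 0.0875. Complex IV, which here is mt-Co1 almost alone, held 40.7% in both cell types, and the rRNAs 4.16% in GCB and 4.31% in FoB (exact paired permutation p = 0.40625).

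Between genotypes the tRNA share was higher in cKO in 6 of 6 pairs, at 0.0277% against 0.0225% (exact paired permutation p = 0.03125, adjusted p = 0.0875). Its mean was 0.0342% in cKO GCB against 0.025% in WT GCB, and 0.0212% against 0.02% in FoB. In FoB the pairs of replicates 2 and 3 were nearly equal, at 0.0104% against 0.0103% and 0.0316% against 0.0313%. This share is mostly mt-Tt and mt-Tw. Per 100000 mitochondrially encoded counts, mt-Tt was lower in cKO in those pairs, at 4.7 against 7.18 and 27.8 against 28.3, and higher in the rest. In FoB replicate 2, mt-Tw had 53 counts in cKO and 24 in WT, so the tRNAs did not rise alike. No other share had an adjusted p under 0.5. By replicate number the rRNA share was 3.62% to 3.84% in replicate 1, 4.23% to 4.35% in replicate 2 and 4.38% to 4.95% in replicate 3. These ranges did not overlap, while the share of complex IV was 40.1% to 41.5% in all libraries.

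Nuclear genes that make and mature mitochondrial RNA were read from lists chosen by function. Of 17 genes for mitochondrial transcription and DNA upkeep, 3 were called higher and 1 lower in WT GCB than in WT FoB, against 25.6% and 22.8% of all tested genes, with a median log2 fold change of 0.01 (-0.01 over all genes). With the block 5 were called higher and 4 lower, against 35.2% and 34.3% of all genes. Mgme1, a nuclease that trims mitochondrial DNA ends, rose from 10.8 ± 2.54 to 25.6 ± 4.02 CPM (log2 fold change 1.31 ± 0.20, adjusted p = 0.000197). Tfb1m, which methylates the 12S rRNA, rose from 13.3 ± 3.30 to 21.3 ± 2.67 CPM (0.74 ± 0.23, adjusted p = 0.0187). Mterf4, which acts in mitochondrial ribosome assembly, rose from 14.3 ± 1.76 to 19.2 ± 0.712 CPM (0.49 ± 0.14, adjusted p = 0.0105).

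The Tfb1m and Mterf4 calls did not hold under all settings. Tfb1m was not called without WT FoB replicate 3 (adjusted p = 0.0801), WT GCB replicate 1 (0.0574) or WT GCB replicate 2 (0.0544), and without replicate 2 of every group (0.0879). Mterf4 was not called with no low-count filter (0.142) and without replicate 2 of every group (0.131). The mitochondrial RNA polymerase Polrmt (0.01 ± 0.44) and the DNA-packaging factor Tfam (0.09 ± 0.19) had adjusted p-values of 0.987 and 0.739. Polrmt was at 40.0 to 55.1 CPM in replicate 3, where the mitochondrial transcripts were lowest, and at 15.4 to 24.2 in replicate 2. In replicate 1 it was at 20.8 to 33.4 CPM, and in WT GCB replicate 1 (20.8) lay below replicate 2 (21.2). The share of tested genes with such a pattern is not given here. Tfam went the other way between these 2 replicates, at 87.3 to 104 CPM in replicate 3 and 109 to 135 in replicate 2. It was lowest in replicate 3 of all 4 groups, as were 15% of tested genes. A link of either gene to the mitochondrial levels was not tested.

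Of 20 measured genes for mitochondrial RNA processing and stability, 5 were called higher and 1 lower in WT GCB, against 25.6% and 22.8% of all tested genes, with a median log2 fold change of 0.25. With the block 11 were called higher and 2 lower, against 35.2% and 34.3% of all genes. Grsf1, a protein of mitochondrial RNA granules, rose from 66 ± 6.53 to 124 ± 17.3 CPM (0.97 ± 0.22, adjusted p = 0.00276). Pde12, which removes poly(A) tails in mitochondria, rose from 28.1 ± 2.88 to 44.7 ± 2.09 CPM (0.74 ± 0.14, adjusted p = 0.000845). Hsd17b10, a subunit of the RNase that cuts the 5′ ends of mitochondrial tRNAs, fell from 52.4 ± 6.70 to 29.5 ± 4.90 CPM (-0.77 ± 0.20, adjusted p = 0.00624). In cKO 7 were called higher and 1 lower, against 24.8% and 21.8% of all tested genes, and 11 and 4 with the block, against 34.7% and 34.3%.

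Of 16 genes that modify mitochondrial rRNA and tRNA, 0 were called higher and 1 lower in WT GCB with or without the block, against 25.6% and 22.8% of all tested genes without it and 35.2% and 34.3% with it. The one was Mrm1, a methyltransferase of the 16S rRNA, which fell from 21.4 ± 2.72 to 10.9 ± 1.47 CPM (-0.91 ± 0.14, adjusted p = 0.000181). Nsun4 (-0.24 ± 0.15) and Mrm3 (0.27 ± 0.18), which also act on the rRNAs, had adjusted p-values of 0.214 and 0.251.

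Of 9 nuclear regulators of mitochondrial gene programs, 3 were called higher and 3 lower in WT GCB, against 25.6% and 22.8% of all tested genes. With the block 3 were called higher and 4 lower, against 35.2% and 34.3%. Ppargc1a, a coactivator of mitochondrial biogenesis, fell from 3.10 ± 0.66 to 0.257 ± 0.133 CPM (-3.50 ± 0.39, adjusted p = 1.76e-05). Myc, a growth-related transcription factor, fell from 126 ± 37.4 to 46.3 ± 9.62 CPM (-1.38 ± 0.30, adjusted p = 0.00239). Gabpa, a subunit of an ETS factor that acts on genes of the respiratory chain, rose from 82.8 ± 7.26 to 157 ± 23.9 CPM (0.99 ± 0.19, adjusted p = 0.00114). In the genotype comparisons 0 genes of these 4 lists were called, with or without the block.

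The nuclear genes whose levels moved most like the summed mitochondrial share within groups were ranked among 9448 genes with a mean of at least 5 CPM. Over 12 libraries, less their group means and on log2 CPM scaled by edgeR's TMM factors, Zfp60 had a correlation of 0.985 with the unscaled share. It was 0.982 for 5430427O19Rik, 0.979 for Ints4, 0.978 for Gpr155 and 0.978 for Pigh. In CPM without these factors the order could differ. In WT FoB replicates 1, 2 and 3, Zfp60 was at 23, 20.7 and 17.1 CPM and Ints4 at 154, 139 and 128, both highest in replicate 1. The most opposed were Spindoc at -0.978, Hdac4 at -0.978, Lsm14b at -0.973, Pitpnm2 at -0.973 and E2f4 at -0.971. Such values were common, with 480 genes (5.08%) at 0.9 or above and 423 (4.48%) at -0.9 or below, and the 12 libraries share 3 replicate numbers. Hdac4 shows the opposed pattern, at 13.8 to 17.3 CPM in replicate 2 and 23.5 to 30 in replicate 3.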

How the data were processed

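Raw read counts per gene, as deposited by the authors, were used for 12 libraries. The authors' deposited table of log2 fold changes, p-values and false discovery rates for cKO over WT was read for its mitochondrial rows. The submitters' processing notes name mm10, Bowtie2, MACS2 and edgeR. The sources used here do not give the counter, annotation, strand use or treatment of multiply matching reads. For 10 of 10 members the gene width in the deposited table equalled the RefSeq length (GRCm38.p6), which was used for CPM per kb. The CPM values printed here were computed from each library's total. Correlations used log2 CPM scaled by edgeR's TMM factors instead, while the summed share was not scaled.

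Counts were fitted in R 4.3.3 with edgeR 4.0.16 (TMM factors, filterByExpr on the 4 groups, quasi-likelihood test on group means of 12 libraries, 13708 genes kept and 11932 left out, Benjamini-Hochberg threshold 0.05). Residual degrees of freedom were 8 and the biological coefficient of variation 0.266. Alternatives were the replicate number as a block, RLE, no scaling, scaling on nuclear genes, no low-count filter, DESeq2 1.42.0 and each library left out. Adding the number as a block lowered the coefficient of variation to 0.114. The numbers pair the samples: deviations from group means correlated at 0.478 to 0.753 in 18 pairs of the same number and at -0.654 to 0.095 in 36 pairs of different numbers. Summed shares were compared by exact two-sided permutation of differences over 6 pairs or of 3 against 3 libraries. The paired test takes the 6 pairs as independent, although they share 3 replicate numbers. The scripts were tested on simulated data.

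Members and lists were chosen with earlier results of these data known. Where no member passed, the 3 with the smallest p were named, and from each nuclear list the 3 with the smallest adjusted p in WT. Polrmt and Tfam are described beyond that rule, chosen after their values were seen.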

Additional observations from a re-analysis of the deposited data

How the results depend on the processing

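Over the reported fit and 20 alternatives, members were called in GCB over FoB in cKO in 3 member-setting combinations of 244 and in 0 of 244 in each of the other 4 comparisons. The number of members called higher in cKO GCB than in cKO FoB moved from 0 to 1 (mt-Tt) with the replicate block, with nuclear scaling plus the block (0.79, adjusted p = 0.028) and without cKO FoB replicate 3. The block changed no other member's call. For the summed share, where pairs were part of the test, values without the pairing (no replicate block) were 0.137 and -0.28 with permutation p = 0.874 and 0.725.

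The summed difference of GCB minus FoB turned to -0.101 as a mean log2 ratio (exact paired permutation p = 0.656). Leaving out each replicate number gave -0.374 to 0.499 points, and the negative value came without replicate 2. In the same way the GCB minus FoB difference ran from -0.244 to 0.0403 points for the rRNA share, from -0.23 to 0.0516 for complex IV and, with no change of sign, from -1.5 to -0.455 for complex I. The cKO minus WT difference ran from -0.2 to 0.0989 for complex I, from -0.34 to 0.103 for complex III and from -0.0941 to 0.532 for complex IV.

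Leaving out each library, or replicate 2 of every group (a setting chosen after seeing the data), turned the log2 fold change of many named members. In WT GCB over FoB it ran from -0.36 to 0.71 for mt-Nd1 and from -0.51 to 0.68 for mt-Cytb, and without replicate 2 of every group it was -0.13 and -0.21. For mt-Tt it stayed above 0, from 0.27 without WT GCB replicate 2 to 0.85 without WT FoB replicate 3, and was 0.08 without replicate 2 of every group. In cKO GCB over FoB it ran from -0.88 to 0.2 for mt-Rnr1 and from -0.43 to 1.02 for mt-Nd6. In cKO over WT GCB it ran from -0.03 to 1.97 for mt-Tw, from -1.1 to 0.5 for mt-Nd6 and from -0.92 to 0.37 for mt-Nd1. In cKO over WT FoB it ran from -1.21 to 0.59 for mt-Nd6, from -0.45 to 0.15 for mt-Tt and from -0.68 to 0.78 for mt-Tw, which was -0.5 without replicate 2 of every group. The difference of genotype effects ran from -0.04 to 0.56 for mt-Tt, from -0.91 to 0.39 for mt-Nd1 and from -1.06 to 0.58 for mt-Rnr2, with 0.06 and 0.05 for the latter 2 without replicate 2 of every group. The cause was not tested.

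Counting precision is lowest among the tested members for mt-Tw, with 5 to 57 counts per library, followed by mt-Tt with 48 to 178 and mt-Nd6 with 68 to 460, while each of the 8 abundant members had at least 2942 in every library.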

Other observations

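The ratio of mt-Rnr2 to mt-Rnr1 counts, the 16S over the 12S rRNA, was 2.45, 2.58 and 2.80 in WT FoB and 2.49, 2.86 and 2.64 in cKO FoB. It was 3.09, 3.34 and 2.82 in WT GCB and 2.86, 3.4 and 3.14 in cKO GCB. Every GCB library stood above the FoB library of its genotype and number, and the cell types' ranges overlapped. The ratio was looked at after the values were seen and was not tested.

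Of 9 nuclear pseudogenes of mitochondrial origin, 2 had more than 7 counts in any library. Gm13340 had 50 to 75 counts in replicate 1, 81 to 129 in replicate 2 and 21 to 46 in replicate 3. Gm13341 had 15 to 29, 30 to 63 and 6 to 12 in the same order. The other 7, of which Gm10222 and Gm10925 have a chromosome 1 position in the reference table, had 0 to 7 counts each. Reads of near-identical copies cannot be assigned with certainty.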
